A study of Mus musculus with 8 samples.

Results

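The transcription factors that build the endocrine lineage of the pancreas were examined in E11.0 pancreas buds with and without the Hippo kinases LATS1 and LATS2. The group comprised 8 genes, *Neurog3* and 7 islet lineage factors that act with or after it (*Neurod1*, *Nkx2-2*, *Pax4*, *Pax6*, *Insm1*, *Isl1* and *Rfx6*), selected by name from the 24341 genes of the deposited expression table. All 8 were found, and all 8 passed the filter for testing, an average of 0.5 FPKM or more in the 8 libraries. FPKM counts the fragments of a gene after division by transcript length and library depth, so that levels of different genes can be set side by side. The libraries came from single mouse pancreas buds of about 40 somites, CD1 by strain label, 5 of them WT and 3 Pdx1Creearly;Lats1f/f;Lats2f/f (hereafter Lats1/2PanKO). In the mutant, Cre recombinase driven by the *Pdx1* promoter deletes both floxed kinase genes in pancreatic progenitors, and cells that do not express *Pdx1* keep them. Mesenchyme was pulled off every bud with forceps, and ribosomal RNA was depleted before stranded sequencing. The labels do not tie buds to litters.

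Endocrine cells arise from the pancreatic epithelium when single progenitors switch on *Neurog3*, a basic helix-loop-helix (bHLH) factor without which islet cells do not form. *Neurog3* is expressed briefly, and it activates *Neurod1*, *Insm1*, *Pax4* and other factors that carry cells toward hormone expression. Notch signaling acts against this switch, since its effector HES1 represses *Neurog3* in neighboring cells. At the stage sampled here most endocrine cells express glucagon, and islets have not yet formed. LATS1 and LATS2 phosphorylate the coactivators YAP1 and TAZ and keep them out of the nucleus, where they bind DNA through TEAD factors. The comparison of WT with Lats1/2PanKO buds asks how much RNA of each endocrine factor a bud holds soon after the kinases are lost.

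The 8 genes are spread over 4 chromosomes of the mouse assembly GRCm38. *Neurog3* (chr10:62133090-62134763) and *Rfx6* (chr10:51677760-51730429) lie on chromosome 10, *Pax4* on chromosome 6 (chr6:28442334-28449340) and *Isl1* on chromosome 13 (chr13:116298270-116309688). The other 4 lie on chromosome 2, namely *Neurod1* (chr2:79452637-79456636), *Nkx2-2* (chr2:147176485-147195434), *Pax6* (chr2:105668896-105698410) and *Insm1* (chr2:146221997-146225020). *Insm1* has 1 exon, whereas *Rfx6* has up to 19. The antisense genes *Nkx2-2os* and *Pax6os1* overlap *Nkx2-2* and *Pax6*, and the loci given for these 2 factors in the table span the merged regions. The libraries were stranded and aligned as first-strand, and the antisense genes were low. *Nkx2-2os* lay between 0.133 and 0.399 FPKM in WT buds and between 0.333 and 1.45 FPKM in Lats1/2PanKO buds.

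RefSeq promoter sequences (GRCm38.p6) were at hand for 6 of the 8 genes, and the 250 bases before the annotated start were searched on both strands. *Pax6* has 2 annotated windows, which makes 7 in all. *Pax4* and *Insm1* were not searched. The general E-box CANNTG, the core bound by bHLH factors such as NEUROG3 and NEUROD1, was found in 5 of the 7 windows, against 66.2% of all 32851 promoter windows of this length. The more specific E-box CAGATG was found only in *Nkx2-2*, where it is 1 of the 3 general E-boxes, against 14.4% of all windows. The TEAD motif CATTCC was in 0 of 7 windows, against 12.6% of all. The N-box CACNAG, bound by HES factors, was in 1 *Pax6* window and in *Rfx6*, against 36.7% of all. A match is only a run of letters, and the absence of one in this window says nothing about the factor. The windows of the initiating factor, of its bHLH target, of the member with the most E-boxes and of the member whose level ran opposite to the others are shown 5' to 3' on the sense strand, with E-boxes in capitals. They are *Neurog3* (chr10:62132840-62133089, plus strand), *Neurod1* (chr2:79456637-79456886, minus strand), *Nkx2-2* (chr2:147186403-147186652, minus strand, before a start inside the gene's full extent) and *Isl1* (chr13:116309689-116309938, minus strand).
Neurog3: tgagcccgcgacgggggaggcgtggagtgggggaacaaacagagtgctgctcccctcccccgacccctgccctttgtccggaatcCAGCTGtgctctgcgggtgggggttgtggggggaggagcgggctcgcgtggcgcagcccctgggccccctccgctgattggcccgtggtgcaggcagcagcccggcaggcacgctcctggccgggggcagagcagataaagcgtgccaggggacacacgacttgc
Neurod1: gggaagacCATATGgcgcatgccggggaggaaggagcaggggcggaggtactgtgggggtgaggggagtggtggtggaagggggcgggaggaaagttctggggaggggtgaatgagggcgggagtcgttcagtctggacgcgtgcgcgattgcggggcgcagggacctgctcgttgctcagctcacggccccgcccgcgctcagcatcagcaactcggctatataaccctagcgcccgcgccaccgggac
Nkx2-2: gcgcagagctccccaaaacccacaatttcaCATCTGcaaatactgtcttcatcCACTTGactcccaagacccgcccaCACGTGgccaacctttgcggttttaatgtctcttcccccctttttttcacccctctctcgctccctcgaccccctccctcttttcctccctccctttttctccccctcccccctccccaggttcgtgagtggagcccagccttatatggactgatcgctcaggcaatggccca
Isl1: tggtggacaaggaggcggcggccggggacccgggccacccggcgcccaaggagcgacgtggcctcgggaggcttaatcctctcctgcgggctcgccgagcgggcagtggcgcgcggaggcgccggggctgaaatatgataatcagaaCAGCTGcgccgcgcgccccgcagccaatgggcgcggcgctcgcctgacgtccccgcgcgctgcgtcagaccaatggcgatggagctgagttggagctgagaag
The *Neurog3* and *Isl1* windows each hold 1 E-box of the form CAGCTG. *Neurod1* holds 1 and *Nkx2-2* holds 3. G and C made up 71.2% of the *Neurog3* and *Isl1* windows, 67.6% of *Neurod1* and 56.4% of *Nkx2-2*, with a median of 52.4% over all windows.

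The WT libraries held values above 0 for 16117 to 16955 genes, and the Lats1/2PanKO libraries for 16498 to 16982. FPKM carry no read counts. Low values of single-exon genes placed 1 fragment in a transcript of 1000 bases between 0.099 and 0.107 FPKM in 7 libraries and near 0.134 FPKM in WT replicate 5. On these steps WT replicate 5 would be the shallowest library. However, only 19 to 29 of the 39 to 49 low genes in each library lay on such steps, so depth is not established. The labels were checked with the deleted genes. *Lats1* was lower in all 3 Lats1/2PanKO buds (12.3, 13.8 and 10.1 FPKM) than in any WT bud (14.1 to 16.6 FPKM), and *Lats2* overlapped, at 11.1 to 13.4 FPKM against 11.6 to 14.7 FPKM. FPKM cover the whole gene, so these values do not read the deleted exons. *Pdx1*, which defines pancreatic progenitors, averaged 18 FPKM in WT and 29.4 FPKM in Lats1/2PanKO buds. Over all 13777 genes tested with limma, 2 passed an adjusted p of 0.05, or 0.0145%.

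In WT buds the 8 factors spanned a wide range of levels. *Isl1*, a LIM homeodomain factor of islet cells that is also expressed in dorsal pancreatic mesenchyme and in neurons, was highest by far, at 75.8 ± 6.33 FPKM (SD, n = 5). *Nkx2-2*, a homeodomain factor present in early progenitors and later kept in islet cells, followed at 12.6 ± 3.06 FPKM. The mean for *Isl1* was 6.03 times that of *Nkx2-2*, which was in turn 2.28 times that of *Neurod1*, and neither pair of ranges overlapped. Below these, *Neurod1* (5.52 FPKM), *Pax6* (4.57 FPKM), *Insm1* (3.33 FPKM), *Rfx6* (2.96 FPKM) and *Neurog3* (2.40 FPKM) formed a graded series in which the ranges of every pair of neighbors overlapped. *Pax4* was lowest, and its highest WT bud reached into the *Neurog3* range. The order of the means was the same in Lats1/2PanKO buds. There, ranges separated only *Isl1* from *Nkx2-2*, with a ratio of 3.05, and *Neurog3* from *Pax4*, with a ratio of 3.54.

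Of the 8 factors, 7 had a higher mean in Lats1/2PanKO than in WT buds and 1, *Isl1*, a lower mean. Of all 13777 tested genes, 6461 had a higher mean and 7316 a lower mean. None of the 8 passed an adjusted p of 0.05 in limma. At an unadjusted p under 0.05, 5 were higher, against 6.29% of all tested genes that were higher at this level, and 1 was lower, against 4.99%. All 3 Lats1/2PanKO buds lay above all 5 WT buds for 1 factor, *Insm1*, against 4.46% of all genes. The median log2 fold change of the 8 was 0.65, on the scale of log2(FPKM + 1), beside -0.01 over all tested genes. Without Lats1/2PanKO replicate 3 the median was 0.40 and 1 factor was higher at an unadjusted p under 0.05, against 3.51% of all genes. Without replicate 1 there were 3 such factors, against 5.69%, and 0.90 was the median without replicate 2. The count of 7 factors with a higher mean of log2(FPKM + 1) held with each bud left out in turn, although without replicate 3 the FPKM mean of *Pax4* was 0.921 times the WT mean. The added 1 FPKM makes these fold changes smaller than the ratio of FPKM for factors expressed at a few FPKM. In whole buds, more cells of a type and more RNA per cell cannot be told apart.

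**Figure D1:**
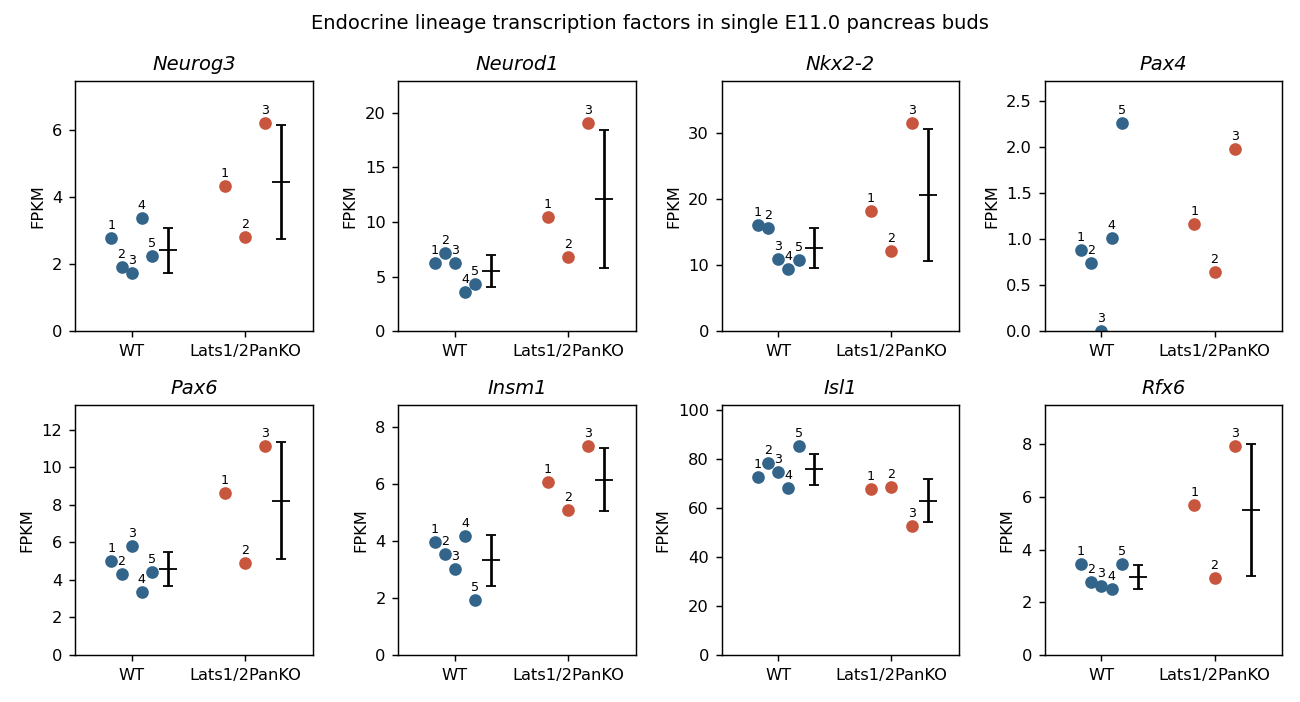
Expression of the 8 endocrine lineage factors in each bud (y axis, FPKM, from 0, with a scale of its own in each panel; x axis, genotype; numbers, replicate). Bars show the mean ± SD for 5 WT and 3 Lats1/2PanKO buds, and *Pax4* has none because 1 WT bud is listed at 0. Lats1/2PanKO replicate 3 was the highest mutant bud for 7 factors and the lowest for *Isl1*, and only *Insm1* had all 3 mutant buds above every WT bud.

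*Neurog3*, the factor that starts the endocrine program, stood at 2.78, 1.92, 1.73, 3.37 and 2.23 FPKM in WT replicates 1 to 5. In Lats1/2PanKO replicates 1 to 3 it stood at 4.32, 2.82 and 6.21 FPKM. Replicates 1 and 3 lay above every WT bud, and replicate 2 lay inside the WT range. The means were 2.40 ± 0.668 FPKM (SD, n = 5 WT) and 4.45 ± 1.70 FPKM (SD, n = 3 mutants), a ratio of 1.85. Its log2 fold change was 0.65 (standard error, SE, 0.23, limma adjusted p = 0.335), and an exact two-sided permutation test over the 56 divisions of 8 buds into 5 and 3 gave p = 0.0536. The smallest p this design allows is 0.0179. Without Lats1/2PanKO replicate 3 the ratio of means was 1.49.

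*Neurod1*, a bHLH factor that *Neurog3* activates and that takes part in insulin gene expression, had the largest ratio of means among the 8 when all buds were counted. *Insm1* had the larger ratio without Lats1/2PanKO replicate 3. The WT values of *Neurod1* were 6.23, 7.16, 6.26, 3.62 and 4.31 FPKM. In Lats1/2PanKO buds they were 10.5, 6.80 and 19.1 FPKM. Again replicates 1 and 3 exceeded the WT range and replicate 2 did not. The means were 5.52 ± 1.48 FPKM (SD, n = 5 WT) against 12.1 ± 6.31 FPKM (SD, n = 3 mutants), 2.202 times as high, and 1.57 times as high without Lats1/2PanKO replicate 3. The log2 fold change was 0.93 (SE 0.30, limma adjusted p = 0.309, exact two-sided permutation p = 0.0357).

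*Insm1*, a zinc finger factor of differentiating endocrine cells and a target of *Neurog3*, was the factor whose groups were separate. WT buds held 3.97, 3.54, 3.02, 4.19 and 1.93 FPKM, and Lats1/2PanKO buds held 6.08, 5.09 and 7.33 FPKM. The lowest mutant bud lay above the highest WT bud. The means were 3.33 ± 0.903 FPKM (SD, n = 5 WT) and 6.17 ± 1.124 FPKM (SD, n = 3 mutants), a ratio of 1.85 that was 1.68 without Lats1/2PanKO replicate 3. The log2 fold change of 0.74 (SE 0.20) had an adjusted p of 0.242 in limma and the smallest p that the exact permutation test can give, 0.0179.

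Of the 2 paired-domain factors, *Pax6*, which acts in hormone gene expression, was higher in mean and *Pax4*, a factor of early beta and delta cells, lay around 1 FPKM or below in most buds. *Pax6* stood at 4.99, 4.30, 5.81, 3.37 and 4.40 FPKM in WT buds and at 8.62, 4.90 and 11.1 FPKM in Lats1/2PanKO buds. Its log2 fold change was 0.68 (SE 0.23, limma adjusted p = 0.329, exact two-sided permutation p = 0.0536), with 2 of 3 mutant buds above the WT range. The ratio of the *Pax6* means was 1.80, or 1.48 without Lats1/2PanKO replicate 3. *Pax4* was listed at 0.881, 0.738, 0, 1.01 and 2.26 FPKM in WT buds and at 1.16, 0.642 and 1.97 FPKM in Lats1/2PanKO buds. All 3 mutant values fell inside the WT range (log2 fold change 0.25, SE 0.35, limma adjusted p = 0.844, exact two-sided permutation p = 0.571). The log2 fold change of *Pax4* was 0.03 without WT replicate 3 or without Lats1/2PanKO replicate 3, and 0.76 with a pseudocount of 0.1.

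*Rfx6*, a winged-helix factor that works downstream of *Neurog3* and also marks early gut endoderm, varied little among WT buds, at 3.45, 2.77, 2.62, 2.51 and 3.45 FPKM. In Lats1/2PanKO buds it stood at 5.68, 2.92 and 7.92 FPKM. Replicate 2 was within the WT range and the others were above it. The means of 2.96 ± 0.456 FPKM (SD, n = 5 WT) and 5.50 ± 2.51 FPKM (SD, n = 3 mutants) gave a ratio of 1.86, or 1.45 without Lats1/2PanKO replicate 3 (log2 fold change 0.64, SE 0.24, limma adjusted p = 0.365, exact two-sided permutation p = 0.0536). *Neurod1* and *Rfx6* are among the genes that the study itself selected on these libraries, so their direction is not independent of that choice.

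*Nkx2-2* had the smallest ratio of means among the 6 factors for which at least 2 mutant buds lay above the WT range. WT buds held 16.1, 15.6, 10.9, 9.45 and 10.8 FPKM, and Lats1/2PanKO buds held 18.2, 12.1 and 31.5 FPKM. The ratio of means was 1.64, and 1.21 without Lats1/2PanKO replicate 3. The log2 fold change was 0.60 (SE 0.28, limma adjusted p = 0.480, exact two-sided permutation p = 0.125).

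*Isl1* ran the other way. It stood at 72.8, 78.3, 74.8, 68.2 and 85.1 FPKM in WT buds and at 67.8, 68.4 and 52.7 FPKM in Lats1/2PanKO buds. Replicates 1 and 3 lay below every WT bud, replicate 1 by less than 1 FPKM, and replicate 2 lay just inside the WT range. The means were 75.8 ± 6.33 FPKM (SD, n = 5 WT) against 63.0 ± 8.87 FPKM (SD, n = 3 mutants), a ratio of 0.830, or 0.898 without replicate 3. The log2 fold change of -0.27 (SE 0.10) had an adjusted p of 0.372 in limma and p = 0.0357 in the exact two-sided permutation test. Markers of mesenchyme, a tissue in which *Isl1* is also expressed, were lower in mean as well. Of 18 listed, 16 were lower and 2 higher, with a median log2 fold change of -0.48 (-0.16 without replicate 3), and their summed level was 1180 to 1340 FPKM in WT and 925 to 1220 FPKM in Lats1/2PanKO buds. None of the 18 was at 0 in any bud. *Vim*, the most abundant and not restricted to mesenchyme, averaged 432 and 520 FPKM, and *Barx1* 334 and 200 FPKM. The list mean was below the WT mean by the most in replicate 3, at -0.82 against -0.24 and -0.16 in replicates 1 and 2. The part of mesenchyme in the *Isl1* difference was not tested.

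The mutant buds kept the same order across most of the factors. Lats1/2PanKO replicate 3 was highest and replicate 2 lowest for 7 of 8, with *Isl1* lowest in replicate 3. Replicates 1 and 3 each lay above every WT bud for 6 of 8 factors, while replicate 2 was inside the WT range for 7 of 8. The mean log2(FPKM + 1) over the 8 factors exceeded the WT mean by 0.55, 0.09 and 0.94 in mutant replicates 1, 2 and 3. Epithelial markers, 20 genes that include cytokeratins, claudins and adhesion molecules, followed the same order, at 0.96, 0.71 and 1.93 above the WT mean over the 19 that were tested. All 19 had a higher mean, 18 at an unadjusted p under 0.05, against 6.29% of all tested genes. Their summed level was 258 to 327 FPKM in WT and 511 to 1240 FPKM in Lats1/2PanKO buds. Their median log2 fold change was 1.14, and 0.74 without replicate 3. The 2 most abundant were *Krt18* (61.8 against 149 FPKM) and *Krt8* (55.95 against 156 FPKM). The endocrine factors are expressed in cells of epithelial origin, and some in other cells too, such as *Isl1* in mesenchyme and neurons. The part of the epithelial share of a bud in the differences of the factors was not tested. In the scaling that follows, more epithelium and more marker RNA per epithelial cell cannot be told apart.

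**Figure D2:**
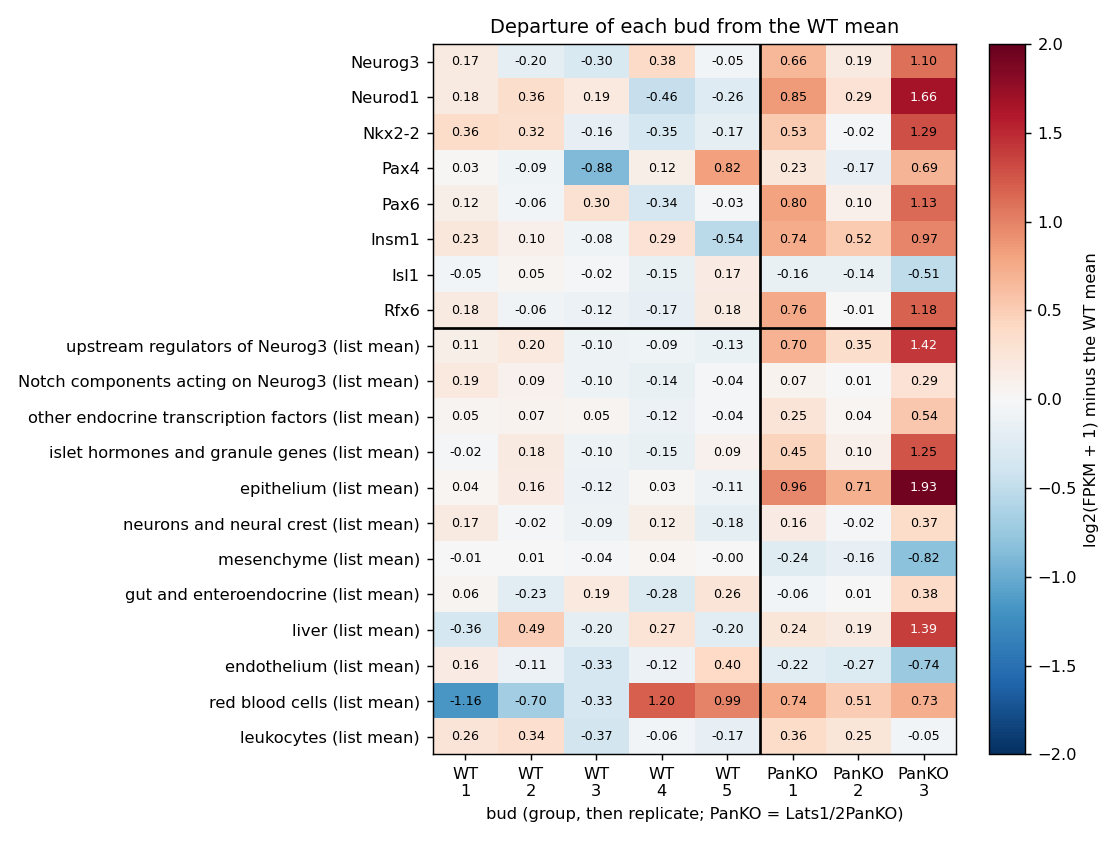
Departure of each bud (columns) from the WT mean, in log2(FPKM + 1), for the 8 factors and for the mean of each list of pathway or marker genes (rows, the mean over tested genes of a list). Color runs from -2 to 2, and a lighter cell is closer to the WT mean. Epithelial markers and the upstream regulators show the same order of mutant buds as the factors, with the greatest departure in replicate 3.

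Each factor was also given relative to the mean log2(FPKM + 1) of all 20 epithelial markers in the same bud. That mean was 1.15 higher in Lats1/2PanKO buds, so the relative difference of a factor is its own difference less this amount. On this scale all 8 factors had a lower mean in Lats1/2PanKO buds, as did 99.0% of all tested genes. The differences were -0.22 for *Neurod1*, -0.41 for *Insm1*, -0.47 for *Pax6*, -0.50 for *Neurog3*, -0.51 for *Rfx6*, -0.55 for *Nkx2-2*, -0.91 for *Pax4* and -1.42 for *Isl1*, with standard errors between 0.15 and 0.49. Every mutant bud lay below every WT bud for 2 of the 8, *Nkx2-2* and *Isl1*, against 90.6% of all genes. *Isl1* alone had p under 0.05 (exact permutation test, two-sided, p = 0.0179), against 92.5% of all genes that were lower at this level. For the others the exact permutation p ran from 0.0536 for *Neurog3* and *Nkx2-2* to 0.339 for *Neurod1*.

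**Figure D3:**
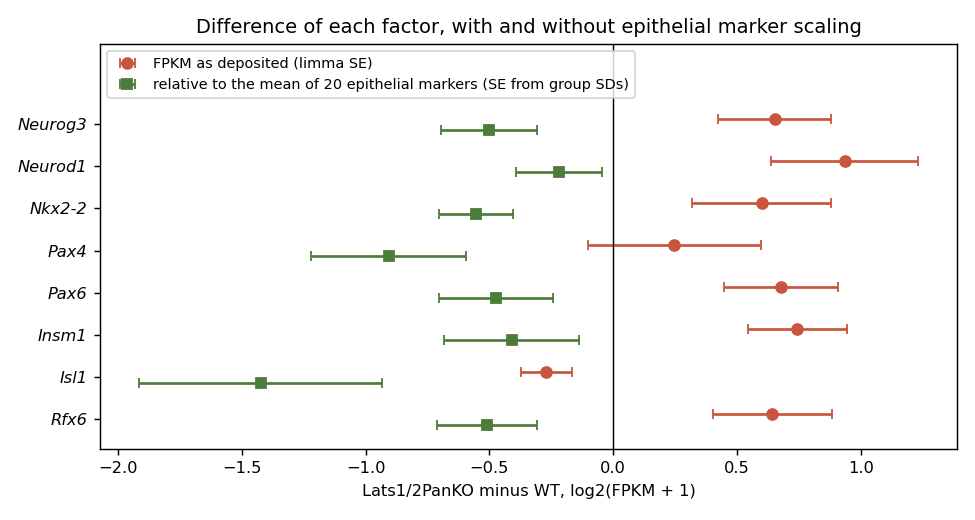
Difference between Lats1/2PanKO and WT buds in log2(FPKM + 1) (x axis) for each factor (y axis), from the values as deposited (circles) and relative to the mean of 20 epithelial markers (squares), with standard errors as bars. The circles lie between -0.27 and 0.93, and the squares between -1.42 and -0.22, all below 0.

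The relative values moved with the buds and the reference used. Without Lats1/2PanKO replicate 1, *Neurog3* (-0.63), *Nkx2-2* (-0.64), *Pax6* (-0.66) and *Rfx6* (-0.69) reached the smallest p that 2 against 5 buds allow in the exact permutation test, 0.0476. A p of 0.0286 was reached by *Nkx2-2* (-0.65) without WT replicate 4, by *Pax4* (-1.10) without WT replicate 3 and by *Insm1* (-0.52) without WT replicate 5, in the same exact permutation test. The share of all genes at such p was not counted with a bud left out. With all buds 92.5% of all genes were lower at p under 0.05 on this scale, so these p-values do not set the factors apart. The progenitor factors *Pdx1*, *Foxa2* and *Prox1* also served as the reference, a choice made after seeing the data. On that scale *Neurod1* (0.28), *Insm1* (0.09) and *Pax6* (0.02) were higher in mean, and *Neurog3* was at -0.004. Only *Isl1* kept an exact permutation p under 0.05 (-0.93, p = 0.0357). The share of all genes at such p was not counted with this reference, so this p does not set *Isl1* apart.

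The proportions among the factors were compared within each bud by setting the other 7 against *Neurog3*. *Neurod1* was 1.08 to 3.73 times the *Neurog3* FPKM in WT buds and 2.44, 2.41 and 3.08 times in Lats1/2PanKO buds. *Insm1* was 0.864 to 1.84 times as high in WT buds and 1.41, 1.80 and 1.18 times in the mutants. For both, the mutant ratios lay within the WT range. The difference in log2 ratio, with 1 FPKM added to both genes, was 0.28 for *Neurod1*, 0.09 for *Insm1*, 0.03 for *Pax6*, -0.01 for *Rfx6*, -0.05 for *Nkx2-2* and -0.41 for *Pax4*, and the exact two-sided permutation p of these 6 lay between 0.268 and 0.982. *Neurod1* was at 0.07 without WT replicate 4 and 0.15 when Lats1/2PanKO replicate 3 was left out, and *Pax4* at -0.19 without WT replicate 5 and -0.07 with a pseudocount of 0.1. These 6 log2 ratios varied more among WT buds (SD 0.31 to 0.57, n = 5) than among mutants (SD 0.04 to 0.24, n = 3). The log2 ratio of *Isl1* went the other way, with an SD of 0.361 in WT and 0.648 in mutant buds. All 7 ratios share *Neurog3*, so their spreads are not independent of each other. WT replicate 4 had the lowest WT log2 ratio for *Neurod1*, *Nkx2-2*, *Pax6*, *Rfx6* and *Isl1*, though not for *Insm1* or *Pax4*. The difference in spread was not tested. *Isl1* was 20.3 to 43.3 times *Neurog3* in WT buds and 15.7, 24.2 and 8.49 times in Lats1/2PanKO buds (difference in log2 ratio -0.92, exact permutation test, p = 0.0536). That *Isl1* ratio had p = 0.0286 without WT replicate 4 (-1.06) and p = 0.0476 without Lats1/2PanKO replicate 2 (-1.22) in the same exact permutation test. With any other bud left out, p in that test ran from 0.0857 to 0.19. *Neurog3* itself was higher in mean in the mutants (log2 fold change 0.65), which lowers the ratio of any unchanged gene. The share of all genes at such p was not counted for ratios to *Neurog3*. These p-values therefore do not set *Isl1* apart.

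Genes that act before *Neurog3* were compared next. Of 13 regulators listed as acting upstream, 12 had a higher mean and 1, *Ptf1a*, a lower mean, with a median log2 fold change of 0.77. None passed the adjusted threshold in limma, and 8 were higher at an unadjusted p under 0.05, against 6.29% of all tested genes. *Sox9*, needed for *Neurog3* expression in progenitors, was at 29.0 ± 3.49 FPKM (SD, n = 5) in WT and 64.4, 48.3 and 110 FPKM in Lats1/2PanKO buds. *Onecut1*, which activates *Neurog3*, was at 16.4 ± 2.71 FPKM (SD, n = 5) in WT and 44.6, 28.6 and 96.2 FPKM in the mutants. *Nkx6-1*, a homeodomain factor of progenitors and later of beta cells, averaged 10.1 and 31.8 FPKM and was likewise above every WT bud in all 3 mutants. These 3 were named for their small p.

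Notch components showed no common direction. Of 15 tested, 9 were higher and 6 lower in mean, with a median log2 fold change of 0.17 that was 0.06 without Lats1/2PanKO replicate 3. *Rbpj*, the DNA-binding partner of the Notch receptors, was at 23.3 ± 1.10 FPKM (SD, n = 5) in WT and 18, 19.4 and 18.1 FPKM in Lats1/2PanKO buds, below every WT bud (log2 fold change -0.32, adjusted p = 0.140 from limma). *Hes6*, which counteracts HES1, averaged 14.8 and 18.5 FPKM (adjusted p = 0.426 from limma), and *Dll1*, a ligand of *Neurog3*-expressing cells, averaged 3.90 and 5.57 FPKM (adjusted p = 0.519). *Jag1*, another ligand, averaged 13.3 and 19.2 FPKM (adjusted p = 0.535). *Hes1*, added for its role after its values had been seen, was at 32.3 and 33.4 FPKM, with a log2 fold change of 0.05 (adjusted p = 0.925).

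Of 21 further endocrine transcription factors, 19 were tested, with 14 higher and 5 lower in mean and a median log2 fold change of 0.27. At an unadjusted p under 0.05, 6 were higher and 1 lower, against 6.29% and 4.99% of all tested genes. *Irx1* and *Irx2*, both found in alpha cells, were among those with the smallest p. *Irx1* averaged 10.1 ± 1.90 FPKM (SD, n = 5) in WT and stood at 18.5, 13.1 and 26.3 FPKM in mutant replicates 1 to 3, above every WT bud (log2 fold change 0.83, limma adjusted p = 0.212). *Irx2* averaged 7.04 FPKM in WT and stood at 11.3, 7.41 and 19.0 FPKM in the mutants, with replicate 2 inside the WT range (log2 fold change 0.67, limma adjusted p = 0.334). The median of this list was 0.48 without Lats1/2PanKO replicate 2 and 0.12 without replicate 3.

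Among islet hormones and granule genes, which these factors control, all 24 tested had a higher mean in Lats1/2PanKO buds. Of these, 11 were at an unadjusted p under 0.05 in limma, against 6.29% of all tested genes, and 0 at an adjusted p under 0.05. *Gcg*, encoding glucagon, was at 686 ± 79.7 FPKM (SD, n = 5) in WT and 1260, 800 and 2020 FPKM in mutant replicates 1 to 3, with replicate 2 inside the WT range, as for 7 of the factors. *Ghrl*, encoding ghrelin, was at 62.5 ± 14.6 FPKM (SD, n = 5) in WT and 107, 111 and 134 FPKM in the mutants, above every WT bud. The granule proteins *Scg2* (1.75 against 3.72 FPKM in mean) and *Scg3* (11.3 against 22.5 FPKM) were also above the WT range in all 3 mutants. The median log2 fold change of the list was 0.57 with all buds, 0.14 without Lats1/2PanKO replicate 3 and 0.86 without replicate 2.

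**Figure D4:**
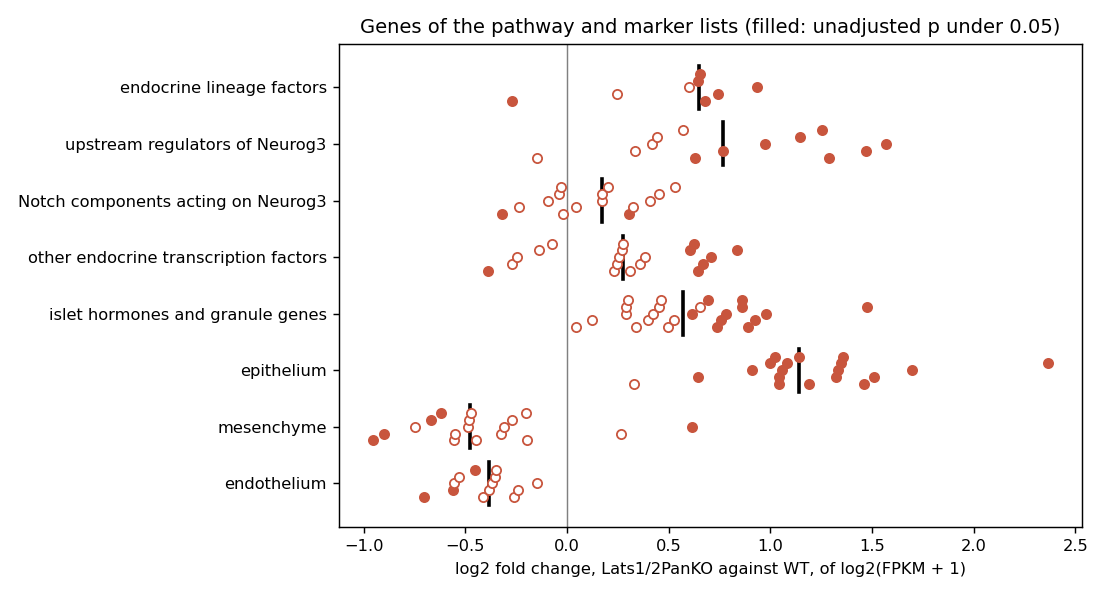
Log2 fold change between Lats1/2PanKO and WT buds (x axis, from log2(FPKM + 1)) of each tested gene in 8 lists (y axis). Filled points have an unadjusted p under 0.05 in limma, open points do not, and black lines mark medians, which run from -0.48 for mesenchyme to 1.14 for epithelium, with 0.65 for the endocrine lineage factors.

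Markers of other cells that express some of the 8 factors were examined as well. Neurons and neural crest express *Isl1*, *Insm1* and *Neurod1*. Of their 16 tested markers, 10 were higher and 6 lower in mean (median log2 fold change 0.26), and their summed level of 155 to 177 FPKM in Lats1/2PanKO buds lay within the WT range of 136 to 200 FPKM. *Hand2* makes up most of that sum. The mean log2(FPKM + 1) over the tested markers departed from the WT mean by 0.16, -0.02 and 0.37 in mutant replicates 1 to 3, the order seen for the factors, with replicate 3 (2.44) above the highest WT bud (2.24). Without replicate 3 the median log2 fold change was 0.11, and without replicate 2 it was 0.41. The most abundant, *Hand2* (117 against 107 FPKM) and *Gap43* (18.4 against 19.95 FPKM), overlapped between genotypes. Gut and enteroendocrine cells share *Neurog3*, *Neurod1*, *Nkx2-2* and *Rfx6*. Their 13 markers summed to 34.5 to 55.5 FPKM in WT and 47.6 to 80.6 FPKM in Lats1/2PanKO buds, with 8 tested, 5 higher and 3 lower. None of the 13 was at 0 in all buds, and 4 were at 0 in some. *Cck*, the most abundant, stood at 13.9 ± 4.26 FPKM (SD, n = 5) in WT and 25.7, 17.8 and 38 FPKM in the mutants, in the same order as the endocrine factors, and *Sct* at 6.87, 14.0 and 22.9 FPKM overlapped with the WT range. The part of these cells in the differences of the 8 factors was not tested.

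Finally, the genes closest in profile to the 3 most variable factors were sought among the 11466 genes that averaged 2 FPKM or more (11467 for *Pax4*, itself below that level), by the root mean square difference between mean-centered log2(FPKM + 1) values over the 8 libraries. The nearest to *Neurod1* were *Nr5a2* (0.121), an acinar and progenitor factor, *Col27a1* (0.144) and *Evpl* (0.163). Those nearest to *Nkx2-2* were *A1cf* (0.079), *Nav2* (0.093) and *Myo5c* (0.1). *Pax4* had less close neighbors, *Serhl* (0.223), *Icam1* (0.232) and *Igfbp2* (0.240). Among the 8 factors themselves, *Nkx2-2* was the closest to *Neurod1*, at 0.221 and rank 37, and *Neurod1* the closest to *Nkx2-2*, at rank 87. *Isl1* was the farthest of the factors from both. The libraries share their preparation, and this ranking is a description without a test.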

How the data were processed

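Stranded paired-end libraries of total RNA were made from 5 WT and 3 Lats1/2PanKO pancreas buds at E11.0, 1 bud each. Groups and replicate numbers were taken from the sample labels. The authors trimmed reads with cutadapt 1.12, aligned them with TopHat2 2.1.0 to mm10 (GRCm38), and deposited FPKM per gene from Cufflinks and Cuffdiff 2.2.1. The methods describe quantile normalization, but the deposited FPKM columns do not share 1 distribution, and they were used as deposited. The low values did not return whole fragments (steps within 3% in genes of at least 1500 bases), so no count model was used and no counting interval is given.

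The 13777 of 24341 genes that averaged 0.5 FPKM or more were tested with limma 3.58.1 in R 4.3.3, fitting a mean-variance trend to log2(FPKM + 1), with Benjamini-Hochberg adjustment over all of them and a threshold of 0.05. 5450 genes were listed at 0 in all libraries. Single values were compared by exact two-sided permutation tests over 56 divisions. The limma step was tested on simulated data. The members and gene lists were chosen with earlier results of these data known, so lists are described by counts and medians, without tests. No p-value was adjusted over the 8 members or the 7 ratios, although an adjustment over the ratios had been planned. Named genes were all members, the 4 genes of smallest p in each pathway list and the 2 most abundant of each marker list, with the 3 nearest profiles of the 3 most variable members. Some genes named by this rule are not reported here.

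Other settings tried were quantile normalization or median-ratio scaling of the columns, a pseudocount of 0.1, a filter at 2 FPKM or none, array weights, no trend, other epithelial references, a replicate block and each library left out. The table counts locus starts from 0, and gene positions printed here are those of RefSeq, counted from 1. Python 3.11.15 and matplotlib 3.10.9 drew the figures.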

Additional observations from a re-analysis of the deposited data

How the results depend on the processing

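The log2 fold changes of the 8 factors kept their direction in all 127 alternatives, and none passed an adjusted p of 0.05. The number of genes called, 2, was 18 with a pseudocount of 0.1, 174 with array weights, 1 without the mean-variance trend, and 0 to 69 with each bud left out (69 without Lats1/2PanKO replicate 2, 19 without replicate 3, 1 without replicate 1, 4 without WT replicate 4 and 0 without any other WT bud). These calls touch none of the 8. The cause of these moves was not tested.

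Relative to epithelial markers, the progenitor factors as reference turned *Neurod1* to 0.28, *Pax6* to 0.023 and *Insm1* to 0.088. *Nkx2-2* passed p of 0.05 with a pseudocount of 0.1 (-0.68) and with *Cdh1* and *Epcam* as reference (-0.46), and *Pax4* with 4 markers (-0.92). The share of all genes passing was not counted in these settings. It was 92.5% in the main setting, in the direction of lower values in Lats1/2PanKO buds. The progenitor reference and that of *Cdh1* and *Epcam* were chosen after seeing the data. With each bud left out the values ran from -0.63 to -0.37 for *Neurog3*, -0.65 to -0.47 for *Nkx2-2*, -1.10 to -0.68 for *Pax4*, -0.66 to -0.35 for *Pax6*, -0.54 to -0.17 for *Insm1* and -0.69 to -0.42 for *Rfx6*. Ratios to *Neurog3* near 0 changed sign, for *Pax6* to -0.055 with a pseudocount of 0.1 and for *Rfx6* to 0.007 with quantile normalization. With each bud left out they ran from -0.235 to 0.076 for *Nkx2-2* (0.025 and 0.076 were the values above 0), -0.15 to 0.18 for *Pax6* (-0.152 and -0.029 below 0), -0.029 to 0.203 for *Insm1* (-0.029 without WT replicate 5 or Lats1/2PanKO replicate 2), -0.146 to 0.085 for *Rfx6* (0.025, 0.035, 0.048 and 0.085 above 0), 0.07 to 0.42 for *Neurod1*, -0.55 to -0.19 for *Pax4* and -1.22 to -0.58 for *Isl1*. List medians ran from 0.12 to 0.48 for other endocrine factors, 0.14 to 0.86 for hormones and granule genes, 0.74 to 1.37 for epithelium, -0.62 to -0.16 for mesenchyme, -0.11 to 0.29 for gut cells, 0.06 to 0.23 for Notch components, 0.11 to 0.41 for neurons, 0.27 to 0.76 for liver and -0.50 to -0.24 for endothelium. The cause was not tested.

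Deviations of same-numbered buds of the 2 genotypes had r across genes of 0.09, -0.10 and 0.07 for numbers 1, 2 and 3. For 2 of 3 mutant buds the highest r was with the WT bud of their own number. The labels give no pairing, so the buds were treated as unpaired, and whether they are paired was not tested. With the replicate block, 1 gene was called, no factor was, and the relative value of *Isl1* was -1.39 with an exact permutation p of 0.25, the smallest that 3 pairs allow. The fragments behind factors of a few FPKM are not known, which limits how small a difference can be read.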

Other observations

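Other cells of the bud gave the following values. Of 13 endothelial markers, all 13 had a lower mean in Lats1/2PanKO buds (median log2 fold change -0.39, or -0.24 without WT replicate 5 and -0.25 when Lats1/2PanKO replicate 3 was left out), and 0 were past an adjusted p of 0.05 in limma, where 3 had an unadjusted p under 0.05. Of all tested genes, 4.99% were lower at that unadjusted p. *Cdh5*, which encodes the endothelial cadherin, averaged 37.7 ± 7.42 FPKM (SD, n = 5) in WT and stood at 32.4, 32.6 and 19.9 FPKM in the mutants. *Kdr*, a receptor for vascular endothelial growth factor, averaged 26.5 and 19.97 FPKM. Red cell genes varied more among WT buds than the other marker lists did. The summed level of 10 red cell genes ran from 2660 to 15900 FPKM in WT and from 8110 to 10300 FPKM in Lats1/2PanKO buds, with the embryonic globins *Hbb-y* (4420 and 4496 FPKM in mean) and *Hba-x* (2422 and 2985 FPKM) the most abundant. All 9 tested red cell genes were higher in mean, none at an unadjusted p under 0.05.

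All 9 tested liver markers averaged higher in Lats1/2PanKO buds (median log2 fold change 0.50, or 0.27 without Lats1/2PanKO replicate 3 and 0.76 without replicate 2), 3 of them at an unadjusted p under 0.05, against 6.29% of all tested genes. *Ttr*, a thyroid hormone carrier also made by islet alpha cells, stood at 148, 107 and 318 FPKM in mutant replicates 1 to 3, against 103 ± 23.2 FPKM (SD, n = 5) in WT. *Afp*, which encodes alpha-fetoprotein, stood at 30.5, 31.4 and 89.5 FPKM, above every WT bud (12.97 to 27.84 FPKM). Leukocyte markers were low, with 6 of 9 tested genes higher and 3 lower in mean. *C1qb* averaged 2.93 and 4.18 FPKM and *Tyrobp* 2.82 and 3.70 FPKM.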
